A study of Mus musculus with 4 samples.

Results

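A set of 9 genes of lipoprotein handling was followed through single-nucleus RNA-seq of mouse brain. They were chosen by symbol from a list of apolipoproteins, lipid exporters and lipoprotein receptors, and they make up 9 of the 32285 genes of the count matrices. *Apoe* and *Clu* encode secreted apolipoproteins, *Lcat* encodes an enzyme that esterifies cholesterol on lipoproteins, *Abca1* and *Abcg1* encode exporters of cholesterol and phospholipid, and *Lrp1*, *Lrp8*, *Vldlr* and *Sorl1* encode receptors of the LDL receptor family. All 9 were found in the matrices of the 4 libraries.

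Nuclei came from brains of female 5XFAD mice, a transgenic model that deposits amyloid, with transgenes driven by the neuronal *Thy1* promoter. The mice, 7 to 10 weeks old in the series' design text, had received by vein engineered extracellular vesicles (EVs), built from lipids of adipocyte EVs, with a low or a high content of phosphatidylethanolamine (PE). The PE-low and PE-high groups each hold 2 libraries, and each library pools 2 mice, so that n = 2 per group and p-values measure only the spread between these libraries. Both groups carry the transgenes and received EVs. Below, 4 values in a row stand for PE-low replicates 1 and 2 and PE-high replicates 1 and 2, in that order.

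The brain has its own lipoproteins. Glia, chiefly astrocytes, secrete apolipoprotein E particles that are loaded with cholesterol and phospholipid through the ABC exporters, and neurons and glia take them up through receptors of the LDL receptor family. Microglia are known to raise *Apoe* near amyloid plaques, and *APOE*, *CLU*, *SORL1* and *ABCA1* are genes that human genetics has tied to Alzheimer's disease.

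The libraries hold 29472021 to 43272337 UMIs (unique molecular identifiers, each standing for a captured RNA molecule). Of these, 50.4% to 50.9% lie in 8744 to 13915 called nuclei per library, of which 1457 to 3458 had 200 to 2500 genes and at most 3% mitochondrial UMIs, the limits that the study used. These limits left 10689 nuclei in all, and a limit of 15% mitochondrial UMIs left 37532. The study describes more nuclei than its stated limits leave here. Pairs of libraries share 28 to 53 barcodes of called nuclei. PE-low replicate 1 stands apart from the other 3 libraries. The summed level of 7 interferon-induced genes, listed after a cluster led by them had been seen, was 12.4 CPM in its near-empty barcodes against 98.4 to 137 CPM in the others, and its endothelial nuclei form a cluster of their own. Some comparisons are therefore also given without this library, though not every value.

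Nuclei were clustered without the 9 genes and without other genes of lipoprotein handling, and clusters were named after marker genes as "X-like" classes. Levels are CPM, the UMIs of a gene per 1000000 UMIs of the nuclear genome, summed over a class in a library. A CPM is not corrected for the length of a gene. Near-empty barcodes, which follow far below the called nuclei down to rank 90000 by UMIs, hold at most 212 to 299 UMIs each and are taken to carry RNA that was free in the suspension of nuclei. In astrocyte-like nuclei the summed level of 9 astrocyte markers was 14259, 19839, 9856 and 14657 CPM, with 2 of the 9 markers at 0 in PE-high replicate 1, against 2761 to 3365 CPM in the near-empty barcodes. At the 3% limit 7 classes had enough nuclei in the 4 libraries to give a level, and others are described at a limit of 15%.

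The members differ most in where their RNA lies, and *Apoe* is the extreme case. Near-empty barcodes held *Apoe* (ENSMUSG00000002985, mm10, chromosome 7, 19696109 to 19699188, minus strand, 5 exons) at 3944, 3392, 4107 and 3450 CPM. It ranked number 7 of 22855 genes there. Astrocyte-like nuclei held it at 1141, 1263, 744 and 769 CPM, with no library reaching the near-empty barcodes.

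Oligodendrocyte precursor-like nuclei followed with *Apoe* at 764, 775, 1197 and 824 CPM, and microglia-like nuclei with 428, 1085, 502 and 415 CPM. These classes overlap with astrocyte-like nuclei, so that their order cannot be told from the spread of the libraries. *Apoe* lay at 494 to 561 CPM in oligodendrocyte-like nuclei, which overlap with microglia-like nuclei, at 308 to 489 CPM in striatal projection neuron-like nuclei, 304 to 372 CPM in inhibitory neuron-like nuclei and 272 to 388 CPM in excitatory neuron-like nuclei. Astrocyte-like nuclei lay above all 3 neuronal classes in every library, and the neuronal classes overlap.

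*Clu* (ENSMUSG00000022037, chromosome 14, 65968483 to 65981547, 9 exons), which encodes the chaperone-like apolipoprotein clusterin, was also highest in the near-empty barcodes and, among the classes, in astrocyte-like nuclei. Near-empty barcodes held it at 673, 687, 696 and 625 CPM and astrocyte-like nuclei at 282, 244, 133 and 165 CPM. Microglia-like nuclei were at 99.5 to 133 CPM, oligodendrocyte-like nuclei at 73.6 to 135 CPM, oligodendrocyte precursor-like nuclei at 66.5 to 130 CPM and excitatory neuron-like nuclei at 61.6 to 72.4 CPM. The ranges of astrocyte-like and microglia-like nuclei just overlap.

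*Lcat* (ENSMUSG00000035237, chromosome 8, 105939551 to 105943382, minus strand, 6 exons) was the scarcest member, with 1256 UMIs over all barcodes of the 4 libraries against 284501 UMIs of *Apoe*. Near-empty barcodes held it at 15.3, 16.1, 17.4 and 18.0 CPM. In astrocyte-like nuclei it stood at 11.8, 6.49, 0 and 6.10 CPM, where the third library had 0 UMIs, and in excitatory neuron-like nuclei at 0.599 to 2.05 CPM. With up to 15% mitochondrial UMIs, astrocyte-like nuclei held 21.6, 17.6, 12.6 and 13.1 CPM of *Lcat* and inhibitory neuron-like nuclei 1.39 to 2.33 CPM, with no overlap between those classes.

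**Figure D1:**
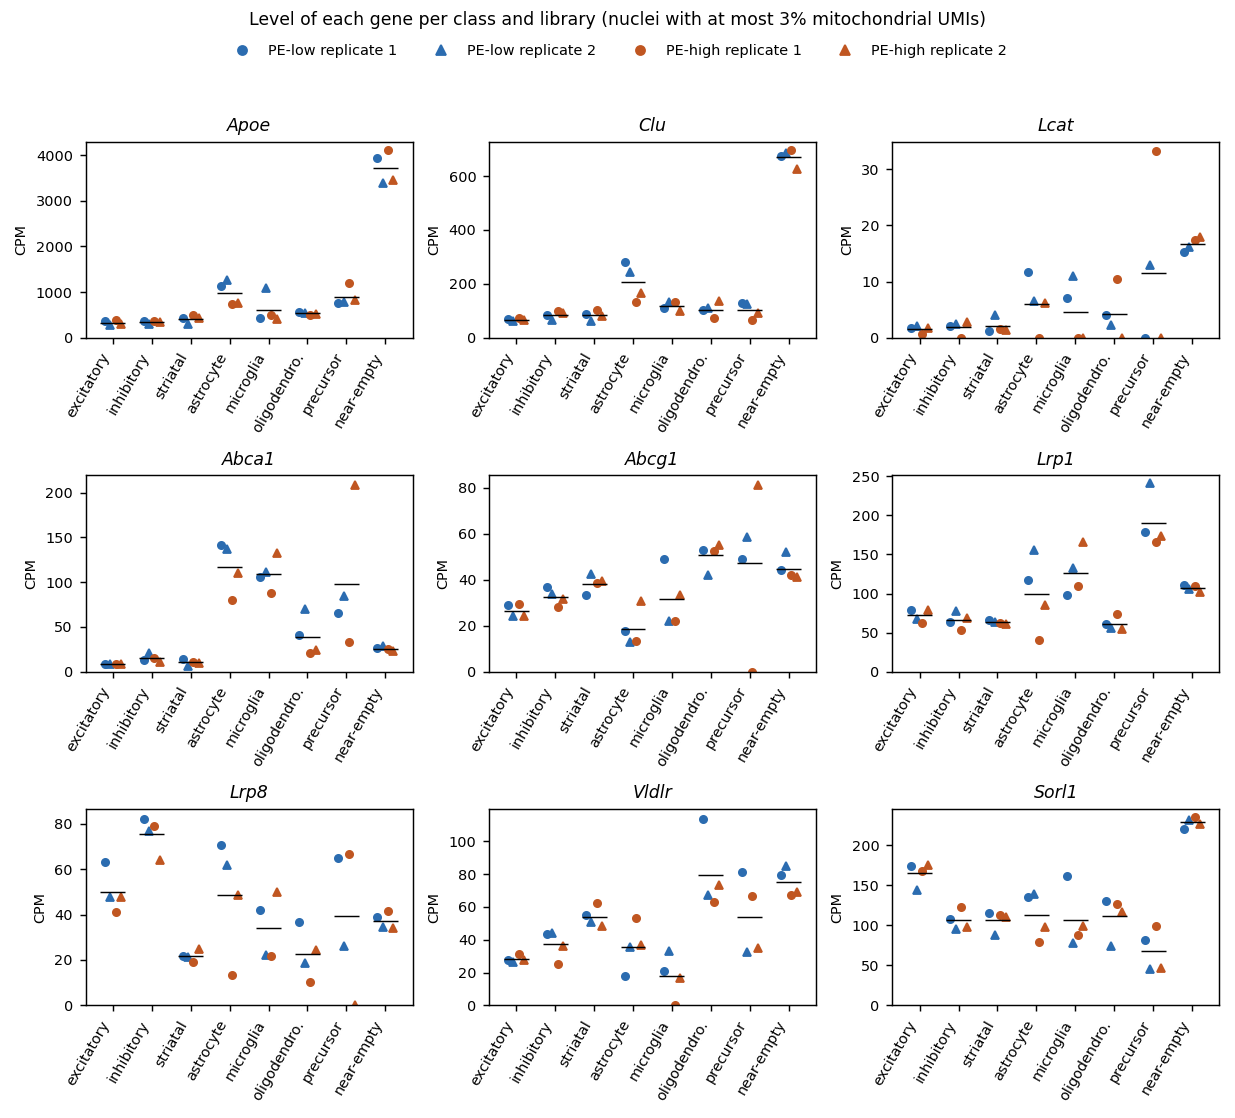
Level of each of the 9 genes (CPM, y axis, each panel with its own scale from 0) in 7 classes of nuclei with at most 3% mitochondrial UMIs and in near-empty barcodes. Points are libraries and black lines are means of the 4 libraries. *Apoe* and *Clu* lie highest in the near-empty barcodes, at 3392 to 4107 CPM and 625 to 696 CPM, while *Abca1* is highest in astrocyte-like and microglia-like nuclei.

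The exporters were placed otherwise. *Abca1* (ENSMUSG00000015243, chromosome 4, 53030787 to 53159895, minus strand, 50 exons), which loads lipid onto apolipoprotein E, was at 141, 136, 79.7 and 110 CPM in astrocyte-like nuclei and at 105, 111, 87.4 and 133 CPM in microglia-like nuclei. Near-empty barcodes held it at only 23.4 to 28.2 CPM, and excitatory neuron-like nuclei at 8.25 to 8.98 CPM. Both glial classes lay above the near-empty barcodes in all 4 libraries, and neuronal classes lay below them in all 4. Oligodendrocyte precursor-like nuclei spread from 33.2 to 209 CPM of *Abca1* and cannot be placed.

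*Abcg1* (ENSMUSG00000024030, chromosome 17, 31057675 to 31117988, 15 exons), which hands cholesterol on to lipoprotein particles, was flatter. Oligodendrocyte-like nuclei held 52.8, 41.9, 52.6 and 55.2 CPM, striatal projection neuron-like nuclei 33.2 to 42.3 CPM and astrocyte-like nuclei 12.99 to 30.5 CPM. At the 3% limit astrocyte-like nuclei were thus highest in mean level for *Abca1* and lowest for *Abcg1*, which rests there on 13 UMIs. Their ranges overlap with microglia-like nuclei for *Abca1* and with excitatory neuron-like nuclei for *Abcg1*. At the 15% limit mean *Abca1* was higher in microglia-like than in astrocyte-like nuclei (203 against 152 CPM). The near-empty barcodes, at 41.2 to 51.8 CPM of *Abcg1*, overlap with the oligodendrocyte-like nuclei.

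Among the receptors, *Lrp1* (ENSMUSG00000040249, chromosome 10, 127538161 to 127621148, minus strand, 89 exons), a large endocytic receptor of apolipoprotein E, was highest in oligodendrocyte precursor-like nuclei at 179, 241, 166 and 174 CPM. This class did not overlap with any other at the 3% limit, but its lowest library rests on 5 UMIs and lay just above the highest microglia-like one at 165.8 CPM. Microglia-like nuclei held *Lrp1* at 98.2 to 166 CPM, near-empty barcodes at 102 to 111 CPM and neuronal classes at 53.6 to 78.6 CPM. At the 15% limit, microglia-like nuclei at 183, 239, 176 and 212 CPM overlapped with the precursors at 229, 228, 201 and 155 CPM.

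*Lrp8* (ENSMUSG00000028613, chromosome 4, 107802261 to 107876840, 21 exons) encodes apolipoprotein E receptor 2, which also receives the reelin signal. Inhibitory neuron-like nuclei held it at 82.2, 76.6, 79.1 and 63.8 CPM, above excitatory neuron-like nuclei at 41.3 to 63.0 CPM and striatal projection neuron-like nuclei at 19.2 to 24.8 CPM, and these 3 ranges do not overlap. In the other reelin receptor gene, *Vldlr* (ENSMUSG00000024924, chromosome 19, 27216484 to 27254231, 19 exons), the order of the neuronal classes was another. Striatal projection neuron-like nuclei had 48.1 to 62.3 CPM of *Vldlr*, inhibitory neuron-like nuclei 25.5 to 44.1 CPM and excitatory neuron-like nuclei 26.4 to 31.1 CPM.

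The highest mean of *Vldlr* was in oligodendrocyte-like nuclei at 114, 67.5, 63.1 and 73.6 CPM, where PE-low replicate 1 lay far above the others, and the near-empty barcodes at 67.2 to 84.9 CPM overlap with them. *Sorl1* (ENSMUSG00000049313, chromosome 9, 41964720 to 42124297, minus strand, 48 exons), whose product sorts the amyloid precursor protein in endosomes, was at 174, 145, 168 and 175 CPM in excitatory neuron-like nuclei. The next classes were astrocyte-like nuclei at 79.7 to 140 CPM and oligodendrocyte-like nuclei at 74.5 to 130 CPM. *Sorl1* was more even over the classes than the other receptors, and its near-empty level, 220 to 235 CPM, lay above every class. Annotated antisense genes, which were counted under their own names, overlap *Lrp1*, *Lrp8*, *Sorl1* and *Lcat*.

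Within a class the clusters at the 15% limit were not alike. Over the 8 excitatory neuron-like clusters, mean *Sorl1* ran from 57.6 CPM in a cluster led by *Nr4a2* to 332 CPM in a cluster led by *Tafa1* and *Npr3*. That last cluster held 339, 329, 345 and 314 CPM, and the next, led by *Il1rapl2*, held 314, 241, 247 and 244 CPM. The *Nr4a2* cluster was at 47.9 to 68.6 CPM and overlapped with neither. Clustering did not use *Sorl1*, but the clusters share their libraries and were found in the same nuclei, so that these levels are a description.

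*Lrp8* was at 70.0 to 106 CPM in the inhibitory cluster led by *Adarb2* and at 72.7 to 90.3 CPM and 61.7 to 91.2 CPM in the other inhibitory clusters. Of the 2 striatal clusters, 1 led by *Foxp2* and *Drd3* held *Lrp8* at 48.6 to 74.8 CPM and 1 led by *Rarb* and *Drd2* at 17.9 to 20.6 CPM. Among the named classes the highest mean of the 4 libraries was in neuroblast or progenitor-like nuclei at 155, 263, 136 and 117 CPM, which rest on 70 UMIs in 553 nuclei. Endothelial-like nuclei held *Lrp8* at 119, 74.1, 45.3 and 87.4 CPM, above the near-empty barcodes in all 4 libraries.

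In the oligodendrocyte lineage, *Vldlr* was at 133, 111, 74.6 and 100 CPM in a cluster with *Bcas1* among its leading genes, a marker of newly formed oligodendrocytes, and at 127, 90.8, 92.0 and 74.5 CPM in the largest oligodendrocyte-like cluster. A 3rd cluster held 55.4, 47.0, 40.8 and 42.6 CPM and overlapped with neither. *Abca1* followed the order in another way, with 68.5 to 101 CPM in the largest cluster, 41.5 to 65.3 CPM in the *Bcas1* cluster and 15.97 to 30.2 CPM in the 3rd. With no upper limit on genes, the 3rd cluster had a median of 2498.5 UMIs per nucleus. The largest cluster had 694 and the *Bcas1* cluster 1254. Doublets were not removed, and their part in the low levels of the 3rd cluster was not tested. In the interneuron cluster led by *Adarb2*, *Vldlr* stood at 87.6, 79.7, 84.6 and 70.0 CPM, against 39.0 to 48.8 CPM in the other 2 inhibitory clusters.

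**Figure D2:**
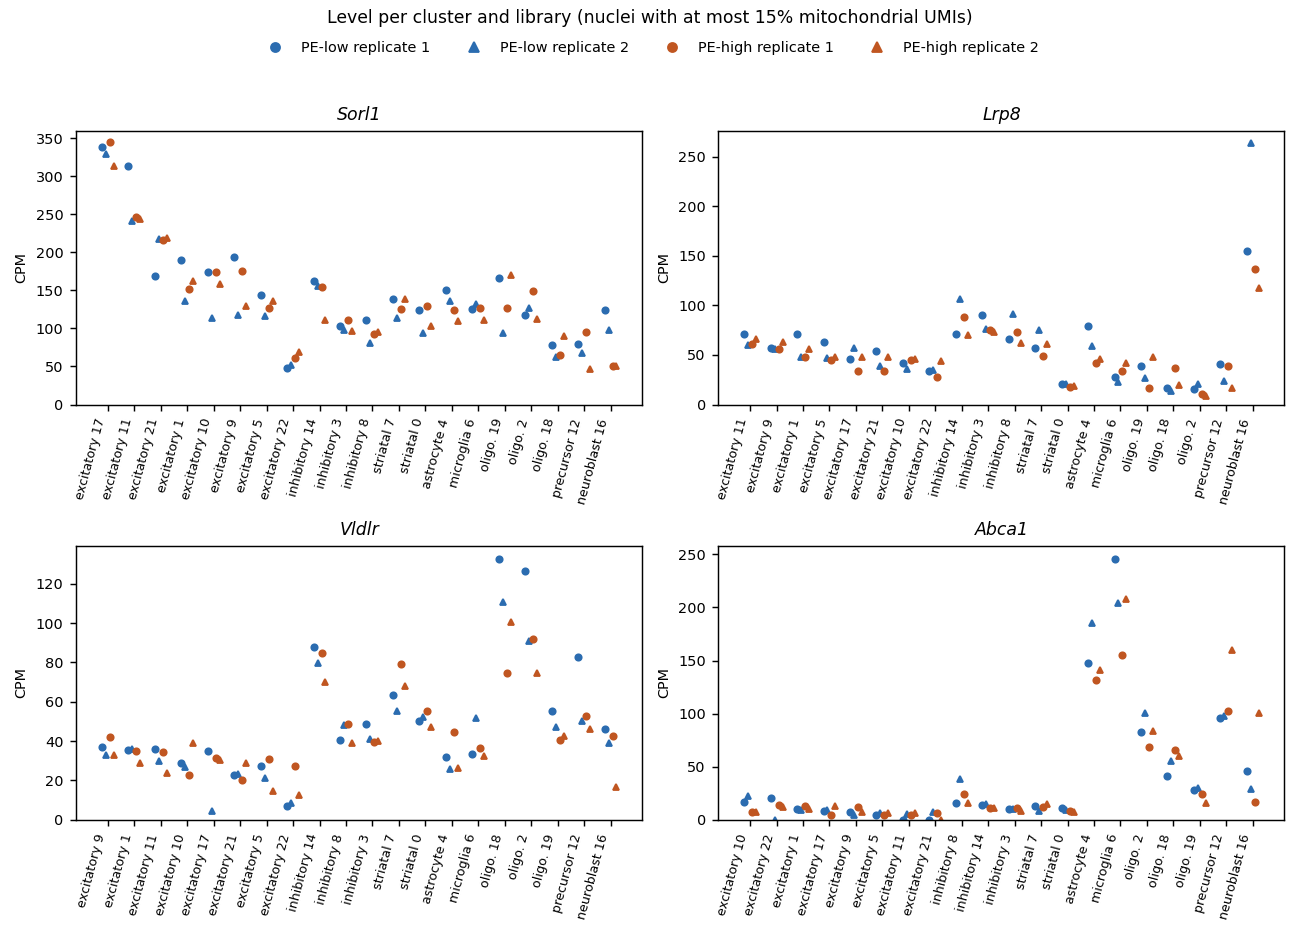
Levels of *Sorl1*, *Lrp8*, *Vldlr* and *Abca1* (CPM, y axis) in single clusters of nuclei with at most 15% mitochondrial UMIs (x axis, class and cluster number, ordered by mean within a class). Each point is a library. *Sorl1* runs from 47.9 to 345 CPM within excitatory neuron-like clusters, and *Lrp8* has a mean of 168 CPM in neuroblast or progenitor-like nuclei. *Vldlr* is low in 1 of the 3 oligodendrocyte-like clusters, which had the most UMIs per nucleus of the 3.

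Setting each gene's highest class against the near-empty barcodes separates the secreted apolipoproteins from the exporter *Abca1*. In the order of the libraries, the log2 ratio of *Apoe* in astrocyte-like nuclei to its near-empty level was −1.79, −1.42, −2.46 and −2.17, and the near-empty mean was 3.80-fold higher. For *Clu* the ratios were −1.25, −1.50, −2.39 and −1.92, and the near-empty mean was 3.25-fold higher. For *Abca1* they were 2.41, 2.27, 1.68 and 2.23, and the astrocyte-like mean was 4.53-fold higher. At the 15% limit the near-empty mean was 1.76-fold higher for *Apoe* and 1.71-fold for *Clu*, and the astrocyte-like mean 5.88-fold higher for *Abca1*. Without the 5% highest doublet scores, these folds were 3.16, 2.41 and 5.58. Against barcodes of 10 to 50 UMIs, the log2 ratio of *Clu* was 0.39 in PE-low replicate 1 but −1.37 for the means.

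*Lrp8* (log2 ratio of means 1.02) and *Lrp1* (0.83) were also higher in their highest class than in the near-empty barcodes in all 4 libraries, while *Sorl1* (−0.46) was lower in all 4. *Abcg1* (0.18) and *Vldlr* (0.08) went both ways among the libraries. For *Lcat* the ratio of means was −0.53, but it rests on 3 UMIs in oligodendrocyte precursor-like nuclei, with 0 UMIs in 2 libraries and ratios of −0.31 and 0.93 in the other 2, so that it gives no direction. The near-empty barcodes are a sum over the whole suspension, in which fewer cells of a type and less RNA per cell cannot be told apart.

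There were 10904 genes with at least 20 CPM in a class or in the near-empty barcodes. Of these, 32.8% were higher in the near-empty barcodes than in any class. Genes that reached 20 CPM only in the near-empty barcodes are among them by this rule. Of the 8 members that reached this level, 3 were higher in the near-empty barcodes. The split ran with the span of the gene, from its first to its last base. Of genes spanning up to 20 kb, 62.9% were higher in the near-empty barcodes, and of longer ones 17.4%. *Apoe* spans 3.08 kb, *Lcat* 3.83 kb and *Clu* 13.1 kb, while *Abca1* spans 129 kb. *Sorl1* has the longest span, 160 kb, and still lay lower in its highest class than in the near-empty barcodes. Over 10901 genes in these libraries the Spearman rho between log2 span and log2 ratio was 0.572, and the part of span in the members' ratios was not tested.

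**Figure D3:**
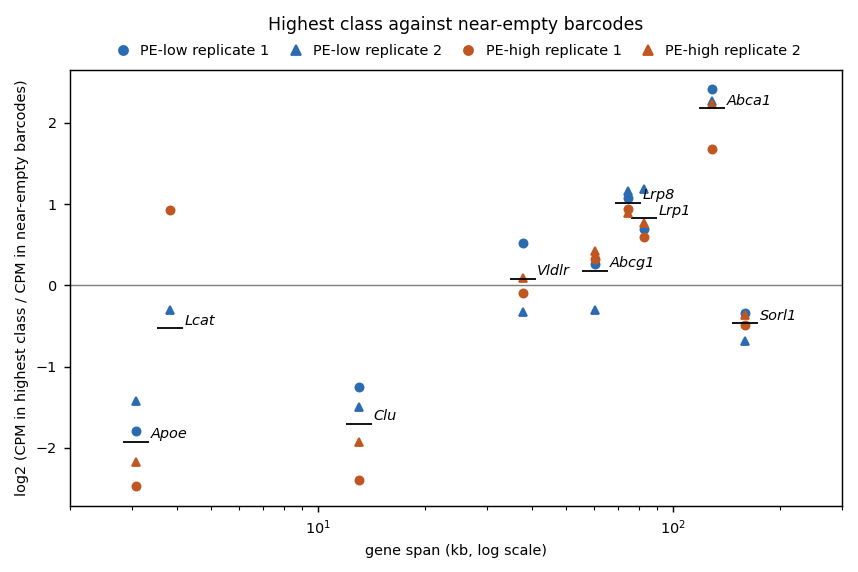
Log2 ratio of the CPM in the class with the highest mean to the CPM in near-empty barcodes (y axis) against the span of the gene (kb, log scale on the x axis), at most 3% mitochondrial UMIs. Points are libraries, bars are ratios of the 4-library means, and 2 libraries of *Lcat* with 0 UMIs are not drawn. *Apoe* and *Clu* lie below 0 in every library and *Abca1*, *Lrp1* and *Lrp8* above it.

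Free RNA also enters droplets that hold a nucleus. Markers of the other classes gave an estimate of its share in each class of each library, which was 12.3% to 19.8% in excitatory neuron-like nuclei, 21.1% or more in astrocyte-like nuclei and 17.2% to 42.8% in microglia-like nuclei. The near-empty level times this share gives an estimate of the level from free RNA. In excitatory neuron-like nuclei the estimate for *Apoe* was 568, 417, 509 and 683 CPM, above the 366, 272, 388 and 294 CPM that were counted in all, so that it overstates the free *Apoe* there and a level at or below it says little. *Apoe* was at or below the estimate in 25 of 28 sums of a class in a library, and *Clu* likewise in 25 of 28. The exceptions for *Apoe* were astrocyte-like nuclei of PE-low replicate 1 (1141 CPM against 962 CPM) and replicate 2 (1263 against 848 CPM) and microglia-like nuclei of PE-low replicate 2 (1085 against 1058 CPM).

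*Lcat* was at or below the estimate in 17 of 28 sums. *Abca1* and *Lrp1* were at or below it in 0 of 28, *Abcg1* in 1, *Lrp8* and *Sorl1* in 2 each and *Vldlr* in 4.

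Levels of the apolipoproteins were higher in nuclei with a higher mitochondrial share, which reflects RNA from outside the nucleus. Over ranges of up to 3%, 3% to 6%, 6% to 10% and 10% to 15% mitochondrial UMIs, the mean of *Apoe* over the 4 libraries went from 979 to 1993, 2736 and 3504 CPM in astrocyte-like nuclei. In microglia-like nuclei it went from 608 to 1197, 1656 and 2071 CPM, and in excitatory neuron-like nuclei from 330 to 412, 544 and 669 CPM. *Clu* in astrocyte-like nuclei went from 206 to 383, 494 and 568 CPM. In these nuclei *Abca1* moved less, from 117 to 166, 148 and 197 CPM, and *Lrp1* from 99.7 to 151, 153 and 140 CPM. This contrast did not hold in every class. *Abca1* went from 109 to 217, 242 and 237 CPM in microglia-like and from 39.0 to 60.4, 79.9 and 88.1 CPM in oligodendrocyte-like nuclei. In excitatory neuron-like nuclei it was at 8.61, 9.12, 8.49 and 13.2 CPM. The estimated share of free RNA in astrocyte-like nuclei was also higher at the 15% limit, 30.2% to 43.7%, and its part in these levels was not tested.

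**Figure D4:**
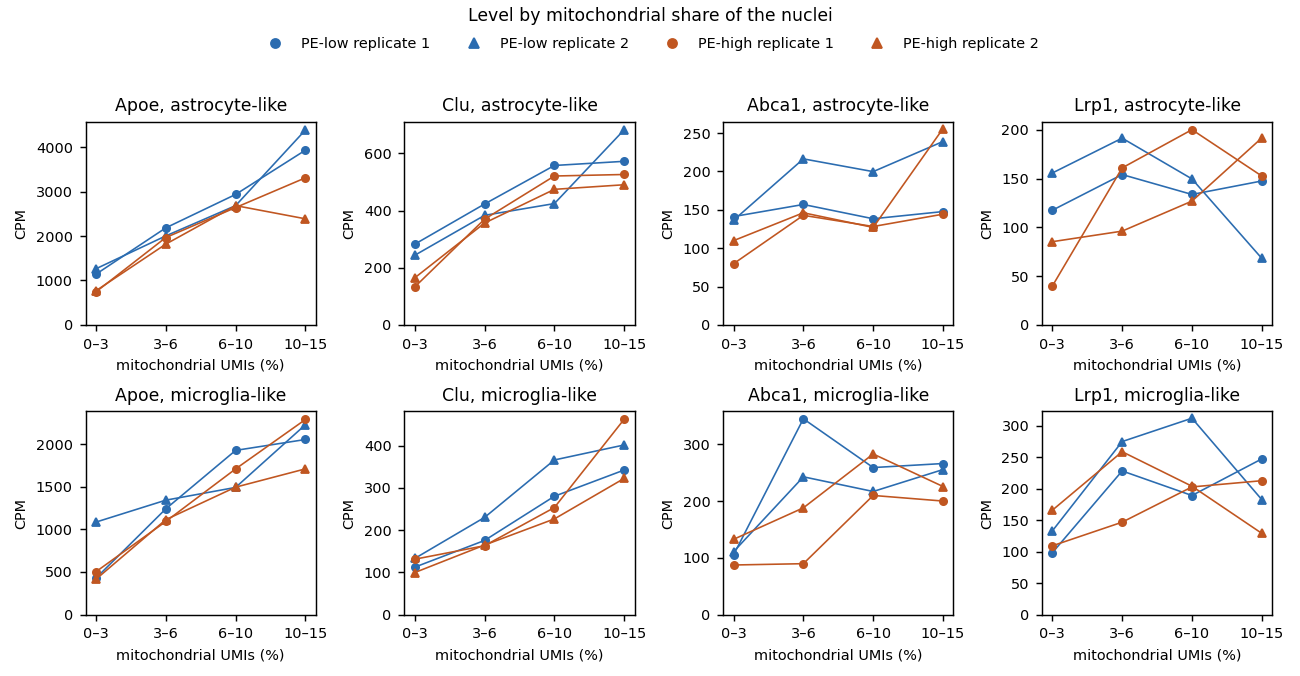
Levels of *Apoe*, *Clu*, *Abca1* and *Lrp1* (CPM, y axis, from 0) in astrocyte-like and microglia-like nuclei of 4 ranges of the mitochondrial share (x axis). Lines join the ranges of a library. Mean *Apoe* goes from 979 to 3504 CPM in astrocyte-like nuclei, where *Abca1* and *Lrp1* show no such steady course. In microglia-like nuclei mean *Abca1* goes from 109 to 217, 242 and 237 CPM.

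With nuclei up to 15% mitochondrial UMIs, classes that the 3% limit nearly empties could be given a level. *Apoe* was at 2390, 2028, 2294 and 1747 CPM in astrocyte-like nuclei, 1289, 1377, 1491 and 1146 CPM in microglia-like nuclei and 437, 312, 490 and 349 CPM in excitatory neuron-like nuclei, and these 3 ranges do not overlap. The highest mean of *Apoe* among the classes was in ependymal-like nuclei, 2753, 2384, 2355 and 2766 CPM in 6 to 22 nuclei per library. Their range overlaps with those of fibroblast-like and astrocyte-like nuclei. Fibroblast-like nuclei held 1499 to 2465 CPM of *Apoe* and endothelial-like nuclei 1668 to 1929 CPM. The share of free RNA was not estimated in ependymal-like, fibroblast-like or endothelial-like nuclei. All of them lay below the near-empty barcodes at 3392 to 4107 CPM, and the part of free RNA in their levels was not tested. At this limit the astrocyte-like nuclei of all 4 libraries exceeded the estimate of *Apoe* from free RNA (2390 against 1514, 2028 against 1024, 2294 against 1795 and 1747 against 1228 CPM). Over the classes, *Apoe* was at or below the estimate in 23 of 28 sums. These include the microglia-like nuclei of every library. *Abca1* in microglia-like nuclei was at 246, 204, 155 and 208 CPM, above its own estimate in all 4 libraries.

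Shares of nuclei told the same order. With each nucleus thinned to 500 UMIs at the 15% limit, 65.2%, 59.3%, 64.1% and 54.6% of astrocyte-like nuclei had a UMI of *Apoe*. The shares were 52.6%, 46.9%, 49.2% and 42.4% of microglia-like nuclei and 21.3%, 14.997%, 21.8% and 16.4% of excitatory neuron-like nuclei. Estimated free RNA at this limit was 15.1% to 19.7% in excitatory neuron-like, 30.2% to 43.7% in astrocyte-like and 41.3% to 52.7% in microglia-like nuclei. The neurons are therefore no background for the glial classes, and the part of free RNA in these shares was not tested. Without thinning the shares with *Apoe* were 85.5%, 84.5%, 78.5% and 70.3% of astrocyte-like and 63.6%, 63.4%, 59.9% and 47.7% of excitatory neuron-like nuclei, at median depths of 694 to 1164 and 1879 to 3362 UMIs. Thinning kept 843, 663, 797 and 681 of the 843, 663, 896 and 747 astrocyte-like nuclei and left out those with fewer than 500 UMIs. For *Abca1* the thinned shares were 8.41% to 13.7% of microglia-like, 6.52% to 7.69% of astrocyte-like and 0.243% to 0.534% of excitatory neuron-like nuclei.

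The design asks whether EVs rich in PE changed these genes. UMIs were summed per class and library and tested with edgeR's quasi-likelihood test, adjusted over all genes tested in a class with a threshold of 0.1. In the 6 classes with at least 20 nuclei in each library, 0 of 38 tests of a member passed, against 0.0023% of all 43549 tests (1 gene, *Cntn5* in oligodendrocyte precursor-like nuclei, named after its value was seen). At an unadjusted p under 0.05 there were 3 member tests, all in astrocyte-like nuclei, beside 2140 of the 43549 tests of all genes and 273 of 3705 in astrocyte-like nuclei. DESeq2 called 0 members, with 0 at an unadjusted p under 0.05, beside 403 of 43549 tests of all genes.

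Those 3 were *Apoe*, *Clu* and *Lrp1*. In astrocyte-like nuclei both PE-high libraries lay below both PE-low libraries for each of them, at the *Apoe* and *Clu* levels given above and at 118, 156, 39.8 and 85.4 CPM for *Lrp1*, whose lowest value rests on 3 UMIs. The log2 fold change of PE-high against PE-low was −0.66 for *Apoe* (standard error 0.27, edgeR adjusted p = 0.65), −0.77 for *Clu* (0.34, adjusted p = 0.65) and −0.99 for *Lrp1* (0.42, adjusted p = 0.65). *Abca1* (−0.48), *Sorl1* (−0.59) and *Lrp8* (−0.80) had values below 0 as well. The median of the 6 members tested was −0.71, beside −0.01 for the 3705 genes tested in these nuclei. Without PE-low replicate 1, which leaves a single PE-low library, the median of the 6 was −0.709, beside 0.0234 for all genes tested.

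The astrocyte-like sums at this limit are small and uneven. They hold 102, 197, 43 and 135 nuclei. The 9 astrocyte markers summed to 14259, 19839, 9856 and 14657 CPM and 3 general neuronal markers to 2312, 1747, 3374 and 2739 CPM, so that the neuronal RNA was higher in both PE-high libraries, and its part in the difference was not tested. Among astrocyte-like nuclei with 3% to 6% mitochondrial UMIs, *Apoe* was at 2184, 2003, 1966 and 1817 CPM. At the 15% limit the log2 fold changes shrank to −0.12 for *Apoe*, −0.08 for *Clu* and −0.17 for *Lrp1*. There, 0 of 50 member tests over the 6 classes passed, against 0.00601% of all 66528 tests. At an unadjusted p under 0.05 there were 3 member tests, beside 3321 of the 66528 tests of all genes.

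**Figure D5:**
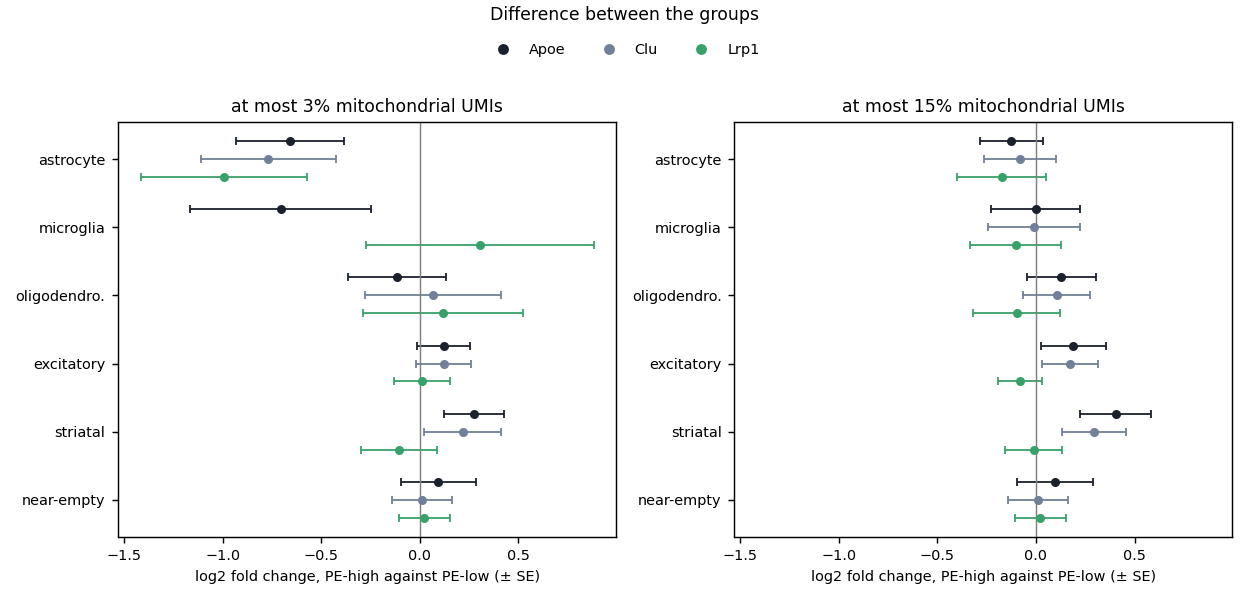
Log2 fold change of PE-high against PE-low (x axis) for *Apoe*, *Clu* and *Lrp1* in 5 classes and in near-empty barcodes, from edgeR. Bars are 1 standard error, and a gene is missing where it was not tested. The near-empty values are the same in both panels. In astrocyte-like nuclei the values of −0.66, −0.77 and −0.99 at the 3% limit become −0.12, −0.08 and −0.17 at the 15% limit.

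In microglia-like nuclei, 0 of the 2 members tested passed, against 0.0% of 1612 genes, with 72 genes and 0 members at an unadjusted p under 0.05 and 0 called by DESeq2. For *Apoe* the log2 fold change was −0.70, with a standard error of 0.46 (edgeR adjusted p = 0.99). The value turns on PE-low replicate 2, the only high library at 1085 CPM, and without that library it was 0.07. At the 15% limit it was −0.0019, with a standard error of 0.22. Whether the difference between the groups is itself different in astrocyte-like and microglia-like nuclei was tested as an interaction, and 0 of 5 members passed, against 0.0% of 3450 genes, with 153 genes at an unadjusted p under 0.05. DESeq2 called 0 of the 5 as well. The interaction, astrocyte-like minus microglia-like, was −0.12 for *Apoe* (standard error 0.44, edgeR adjusted p = 1.0) and −1.37 for *Lrp1* (0.64, adjusted p = 1.0), which was the 1 member at an unadjusted p under 0.05.

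None of the other members passed the test in its highest class. The log2 fold change of *Sorl1* in excitatory neuron-like nuclei was 0.15, with a standard error of 0.12 (edgeR adjusted p = 1.0), and that of *Lrp8* in inhibitory neuron-like nuclei was −0.17 (0.20, adjusted p = 1.0). In oligodendrocyte-like nuclei *Abcg1* was at 0.24 (0.46, adjusted p = 0.97) and *Vldlr* at −0.30 (0.41, adjusted p = 0.94), and in oligodendrocyte precursor-like nuclei *Lrp1* was at −0.34 (0.43, adjusted p = 1.0). *Lcat* had too few UMIs for a test in any class at this limit.

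The near-empty barcodes give the members' deepest counts, from 377 UMIs of *Lcat* to 85343 UMIs of *Apoe*. All 9 members were tested there, and 0 passed, against 0.0% of 14146 genes, with 659 genes and 0 members at an unadjusted p under 0.05. DESeq2 called 26 genes and 0 members. The log2 fold change was 0.09 for *Apoe* (standard error 0.19), 0.01 for *Clu* (0.15), 0.23 for *Lcat* (0.18), −0.13 for *Abca1* (0.16), −0.15 for *Abcg1* (0.14), 0.02 for *Lrp1* (0.13), 0.10 for *Lrp8* (0.15), −0.22 for *Vldlr* (0.13) and 0.08 for *Sorl1* (0.13).

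Leaving out PE-low replicate 1, the library that stands apart, brought 2 calls, against 1.21% of 47041 tests of all genes. *Apoe* was then higher in PE-high in striatal projection neuron-like nuclei (log2 fold change 0.50, standard error 0.12, edgeR adjusted p = 0.0025) and in excitatory neuron-like nuclei (0.31, 0.094, adjusted p = 0.091), and 7 of 40 member tests had an unadjusted p under 0.05, beside 4041 of 47041 tests of all genes. With all 4 libraries these values were 0.28 and 0.12, and without PE-low replicate 2 they were 0.07 and −0.07. In both classes the *Apoe* level of PE-low replicate 2 was the lowest of the 4, at 308 and 272 CPM, and that of PE-low replicate 1, at 434 and 366 CPM, lay among the PE-high libraries.

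At the 15% limit and without PE-low replicate 1, the log2 fold change of *Apoe* was 0.69 in striatal projection neuron-like nuclei. It was 0.42 in excitatory neuron-like and 0.41 in inhibitory neuron-like nuclei. *Abcg1* was at −0.63 in oligodendrocyte-like nuclei. These pairs of a member and a class are named because they passed the threshold there. Many more genes passed than with all 4 libraries, so the passes are not read as a result about the members. With a single library left in the PE-low group, these values set the PE-high pair against PE-low replicate 2 alone. The test takes the lone library to vary like the others.

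A list of 62 other genes of lipoprotein and cholesterol handling, among them further LDL receptor family members, lipases and enzymes of cholesterol synthesis, gave 0 genes higher and 0 lower in 166 tests over the 6 classes. At an unadjusted p under 0.05 there were 13, and DESeq2 called 0 with 3 at that level, beside 2140 and 403 of the 43549 tests of all genes. With all 4 libraries the median log2 fold change of the list over the 6 classes was −0.018, beside −0.0027 for all genes. Without PE-low replicate 1 it was −0.0057, beside 0.0081 for all genes. In near-empty barcodes without that library it was −0.079, beside 0.0047 for all genes. In the near-empty barcodes 54 of them were tested, and 0 passed by edgeR, with 2 at an unadjusted p under 0.05, while DESeq2 called 1 lower. Of the 46 that reached 20 CPM in a class or in the near-empty barcodes, 18 were higher in the near-empty barcodes than in any class.

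The genes whose mean level over the 7 classes ran most like that of a member, by Pearson's r of log2(CPM + 1) among 10143 genes, were for *Apoe* *Cox6c* (r = 0.998), *Rpl10a* (0.98) and *Ndufb4* (0.979), which encode a respiratory chain subunit, a ribosomal protein and another respiratory chain subunit. For *Clu* they were *Ckap5* (0.98), *Tubb2a* (0.974) and the astrocytic glutamate transporter gene *Slc1a3* (0.963). *Abca1* ran with *Ndufa11* (0.987), *Mbip* (0.981) and *Tsc22d4* (0.98), and *Abcg1* with *4933400F21Rik* (0.994), *Enpp4* (0.985) and *Ubald1* (0.977). Among the receptors, *Lrp1* ran with *Bzw1* (0.99), *Ints8* (0.974) and *Txndc15* (0.971), *Lrp8* with *Abca5* (0.958), *4930473D10Rik* (0.956) and *Nfxl1* (0.952), *Vldlr* with *Prdx3* (0.978), *Cenpc1* (0.969) and *Map1lc3b* (0.955), and *Sorl1* with *Plekhg5* (0.982), *Sdk2* (0.979) and *Gm48383* (0.978). The 7 classes share the same 4 libraries and their free RNA, and with so few points a high r among so many genes is a description only. *Lcat* did not reach 20 CPM in any class at the 3% limit and was not matched.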

How the data were processed

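Nuclei from frozen brain sections were sequenced with 10x 3' v3.1 chemistry, and the authors deposited raw UMI counts per gene and barcode from Cell Ranger 7.1.0 with mm10, for every barcode. Barcode and symbol files gave names only. Sex and pooling come from the study's own description, and groups from the labels. The 9 genes and all lists were chosen with earlier results of these data known.

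Nuclei were called from the barcode ranks plus a test against the near-empty profile, and clustered in scanpy 1.11.5 with leidenalg 0.10.2 without the 9 genes, the 62 other genes of the list and mitochondrial genes. Classes were named from marker lists, with naming thresholds set after the clusters had been seen. The main limits, 200 to 2500 genes and at most 3% mitochondrial UMIs, follow the study. Doublets were not removed. The share of free RNA was estimated from markers of other classes relative to near-empty barcodes.

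Counts summed per class and library were tested with edgeR 4.0.16 (quasi-likelihood, Benjamini-Hochberg over all genes tested, threshold 0.1) and, as an alternative, DESeq2 1.42.0 in R 4.3.3. Microglia-like nuclei, with 19 in PE-high replicate 1, were tested apart from the 6 classes with at least 20 nuclei per library. The fit was first tested on simulated data. Alternatives changed the mitochondrial limit, gene limit, low-count filter, normalization, free RNA, doublet scores and the set of libraries. Every member was named. Gene positions are from GENCODE on mm10. Likeness used genes of at least 20 CPM in a class. Intervals of counting error are not given, and SDs or ranges are over libraries.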

Additional observations from a re-analysis of the deposited data

Results flagged for a closer look

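Among sums with at least 10 UMIs of the gene in each library, the PE-high and PE-low libraries did not overlap in 9 of 28 pairs of a member and a class at the 3% limit and in 13 of 54 at the 15% limit. Over all genes the shares were 33.9% and 33.6% of pairs. For the members below, the non-overlapping groups lay in opposite directions between classes. Among genes with such sums in 2 or more classes, this held for 2 of 7 members and 13.8% of 8035 genes at the 3% limit. At the 15% limit it held for 3 of 8 members and 24.1% of 12363 genes. These differences between classes were not tested. At the 3% limit the log2 ratio of group means, PE-high over PE-low, was 0.39 for *Apoe* in oligodendrocyte precursor-like nuclei, −0.67 in astrocyte-like nuclei and −0.13 in oligodendrocyte-like nuclei. For *Clu* it was 0.34 in inhibitory neuron-like and −0.82 in astrocyte-like nuclei.

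At the 15% limit the ratio was 0.44 for *Abca1* in oligodendrocyte precursor-like and −0.29 in astrocyte-like nuclei. *Abcg1* had 0.58 in astrocyte-like, −0.21 in inhibitory neuron-like and −0.09 in striatal projection neuron-like nuclei. *Sorl1* had 0.14 in oligodendrocyte-like and −0.29 in astrocyte-like nuclei.

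A cluster of 1061 nuclei that was given no name, and that no comparison used, held *Apoe* at a mean of 2540 CPM over the 4 libraries, above the astrocyte-like mean of 2115 CPM at the same limit. Haemoglobin genes lead this cluster and its median mitochondrial share was 11.5%.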

How the results depend on the processing

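The 0 member calls over the 6 classes became 1 with a replicate block, 1 with free RNA subtracted, 0 to 2 when a library was left out, and up to 4 when a library was left out at the 15% limit. With the replicate block the call was *Apoe* in astrocyte-like nuclei (log2 fold change −0.66, standard error 0.20, edgeR adjusted p = 0.05). Same-numbered libraries deviated together only weakly (correlations of 0.011 to 0.148 over genes), and no source says that a number pairs them. Over all genes, the 1 call became 4 at the 15% limit, 5 with no upper limit on genes, 28 with no filter on low genes, 239 with the replicate block, 2 with free RNA subtracted, 379 with it subtracted at the 15% limit, and 91 without the 5% highest doublet scores. Leaving out a library gave 6 to 570 genes, and 9, 160, 957 and 2428 at the 15% limit, the last without PE-low replicate 1. In near-empty barcodes the 0 genes became 26 with DESeq2, 123 with no filter, 94 with the replicate block and 0 to 348 when a library was left out.

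Of 248 log2 fold changes under alternatives, which cover each member in its highest class and in near-empty barcodes and *Apoe* in 4 classes but not every member test counted above, 242 made no other call, 5 were called only there in the same direction, and 1 was called in the other direction, *Abcg1* in oligodendrocyte-like nuclei at the 15% limit without PE-low replicate 1 (−0.63). After subtraction of free RNA 2 values had a group at 0 and are left out. The log2 ratio to near-empty barcodes changed sign for *Abcg1* without the 5% highest doublet scores (−0.11) and against barcodes of 10 to 50 UMIs (−0.66), and for *Vldlr* with no upper limit on genes (−0.02) and against barcodes of 10 to 50 UMIs (−0.2). The causes were not tested. Removal of called doublets was not run, since the caller's threshold marked too few nuclei in 3 libraries, and the highest scores were left out instead, as chosen after seeing the data. The 15% runs without a library or with free RNA subtracted and the mitochondrial ranges were likewise added later. With 2 libraries per group and as few as 19 nuclei in a sum, depth limits the smaller classes most.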

Other observations

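Among the vascular and ventricular classes seen at the 15% limit, *Clu* stood at 612, 613, 1619 and 235 CPM in ependymal-like nuclei, on 4 to 20 UMIs per library. *Apoe* in neuroblast or progenitor-like nuclei was at 1314, 790, 1619 and 1208 CPM. *Abcg1* at the 15% limit was at 76.7, 48.9, 46.6 and 52.1 CPM in microglia-like nuclei and at 61.0, 87.4, 62.2 and 52.0 CPM in oligodendrocyte-like nuclei, above the 12.9 to 25.1 CPM of astrocyte-like nuclei in every library. In the largest oligodendrocyte-like cluster it was at 75.1, 114, 87.7 and 51.9 CPM.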
